A study of Mus musculus with 47 samples.

Results

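T-cell tumours of mice that carry a beta-catenin transgene were compared with T-cell tumours of mice that lack *Cdkn2a* and whose tumours arose under retroviral insertional mutagenesis. The 3 arrays titled beta-catenin transgenic and the 9 titled Cdkn2a knockout retroviral insertional mutagenesis were taken by their titles, 12 of the 47 arrays of the series. The other 35 arrays hold tumours of 12 further lymphoma-prone backgrounds and appear below as a backdrop only. All 12 tumours are labelled TLX1 negative T-cell lymphoblasts, and total RNA of each was hybridised to 1 Affymetrix array whose signal per probe set is in arbitrary MAS5 units. The titles name no wild-type control, promoter, form of the transgene, mouse strain, age or sex, and do not give the integration sites of the retrovirus in the Cdkn2a knockout tumours. The transgene, the loss of *Cdkn2a*, the retrovirus and the strain therefore cannot be told apart in this contrast. Nothing in the labels says that the tumours came from separate mice, so the p-values measure only the spread between these samples.

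Beta-catenin is the effector of canonical Wnt signalling. Without a Wnt signal, a complex built on APC and AXIN, with the kinases GSK3 and CK1, marks it for destruction through the ubiquitin ligase subunit BTRC. With a signal, or when it is stabilised, beta-catenin enters the nucleus, binds the TCF and LEF factors and switches on target genes, of which *Axin2*, *Nkd1*, *Notum* and *Apcdd1* themselves restrain the pathway. In the thymus TCF1 and LEF1 help thymocytes pass to the double positive stage, at which CD4 and CD8 are both carried, and forced beta-catenin in thymocytes is known to give T-cell lymphoma. *Cdkn2a* encodes the p16INK4a and p19ARF tumour suppressors, which act on the RB and p53 pathways, and a retrovirus in a mouse without it drives tumours through the genes near which it integrates.

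All 12 tumours carried T-cell markers, though not every one. *Ptcra* was below the filter, at 16, 5.8 and 4.11 in beta-catenin tumours and 4.4 to 486 in Cdkn2a knockout tumours. Its median in the other 35 tumours was 398. *Cd3e*, a chain of the T cell receptor complex, read 1571, 1105 and 1515 in beta-catenin tumours 1 to 3, against 707 to 1850 (median 900.0) in Cdkn2a knockout tumours. *Cd8a*, a chain of the CD8 coreceptor, read 3408, 2075 and 1769 in beta-catenin tumours, and 1195 to 3833 in 8 of the 9 Cdkn2a knockout tumours. Cdkn2a knockout tumour 8 stood apart. It had the highest *Cd3e* of the 12 (1850) and also the highest *Cd3d* (4172) and *Cd3g* (2678), but it read 19.6 for *Cd8a*, 93 for *Cd8b1*, 12.8 for *Rag1*, which encodes the recombinase, and 8.79 for *Dntt*, which adds bases at the joints. Across tested genes its log2 values correlated with the other 8 at Pearson's r of 0.765 to 0.864, while the 3 beta-catenin tumours correlated among themselves at 0.927 to 0.94. Cdkn2a knockout tumour 2 lay close to beta-catenin tumour 2 (r = 0.925 across genes, the highest value between the groups). Array medians were 87.53 ± 5.53 in beta-catenin tumours (mean ± SD, n = 3) and 77.4 ± 8.44 in Cdkn2a knockout tumours (n = 9; exact two-sided permutation p = 0.109). The log2 3'/5' ratio of the *Gapdh* control probe sets, a gauge of RNA integrity, was −0.42 ± 0.04 in beta-catenin tumours and −0.35 ± 0.08 in Cdkn2a knockout tumours (exact p = 0.0818), and that of *Actb* 0.11 ± 0.01 in beta-catenin tumours and 0.14 ± 0.04 in Cdkn2a knockout tumours (exact p = 0.0455). All 3 p-values are 0.109 after Benjamini-Hochberg adjustment over the 3 measures, and 220 splits of the 12 arrays allow none below 0.0091.

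The genes named in the titles gave little to check the labels by. *Ctnnb1*, which encodes beta-catenin, read 3505, 3896 and 4541 in beta-catenin tumours, against 2288 to 4927 (median 3218) in Cdkn2a knockout tumours. The groups overlapped, and the log2 difference of 0.26 ± 0.18 (SE) did not pass the test (limma, adjusted p = 0.428). Which part of a transgene this probe set could read is not given in the labels. The *Cdkn2a* probe set was dim in every tumour and below the filter, at 27.7, 64.8 and 47.1 in beta-catenin tumours and 12.7 to 37.3 in Cdkn2a knockout tumours, with up to 345 among the other 35. Whether it lies in the deleted part is not given either, so it checks nothing.

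Notch1 and AI506816, low and high in both groups, did not match evenly. *Notch1*, whose activation drives many T-cell leukaemias, read 124, 54.3 and 102 in beta-catenin tumours. In Cdkn2a knockout tumours it read 42 to 246 except in tumour 7, at 1537. The other 35 tumours had a median of 2426, so all but Cdkn2a knockout tumour 7 were low for it, and its target *Dtx1*, named after its values were seen, was likewise 84.9, 102 and 112 in beta-catenin tumours and 47 to 133 in 8 Cdkn2a knockout tumours against 2175 in tumour 7. The log2 difference of *Notch1* was −0.60, and −0.14 without Cdkn2a knockout tumours 7 and 8. *AI506816*, an uncharacterised transcript, read 381, 493 and 535 in beta-catenin tumours and 659 to 1117 (median 836) in Cdkn2a knockout tumours, with a median of 15.4 in the other 35. Both groups were thus far above most other tumours, and all 3 beta-catenin tumours lay below every Cdkn2a knockout tumour. The contrast was chosen for the levels of *Notch1* and *AI506816*, so their values are a description with no test.

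**Figure D1:**
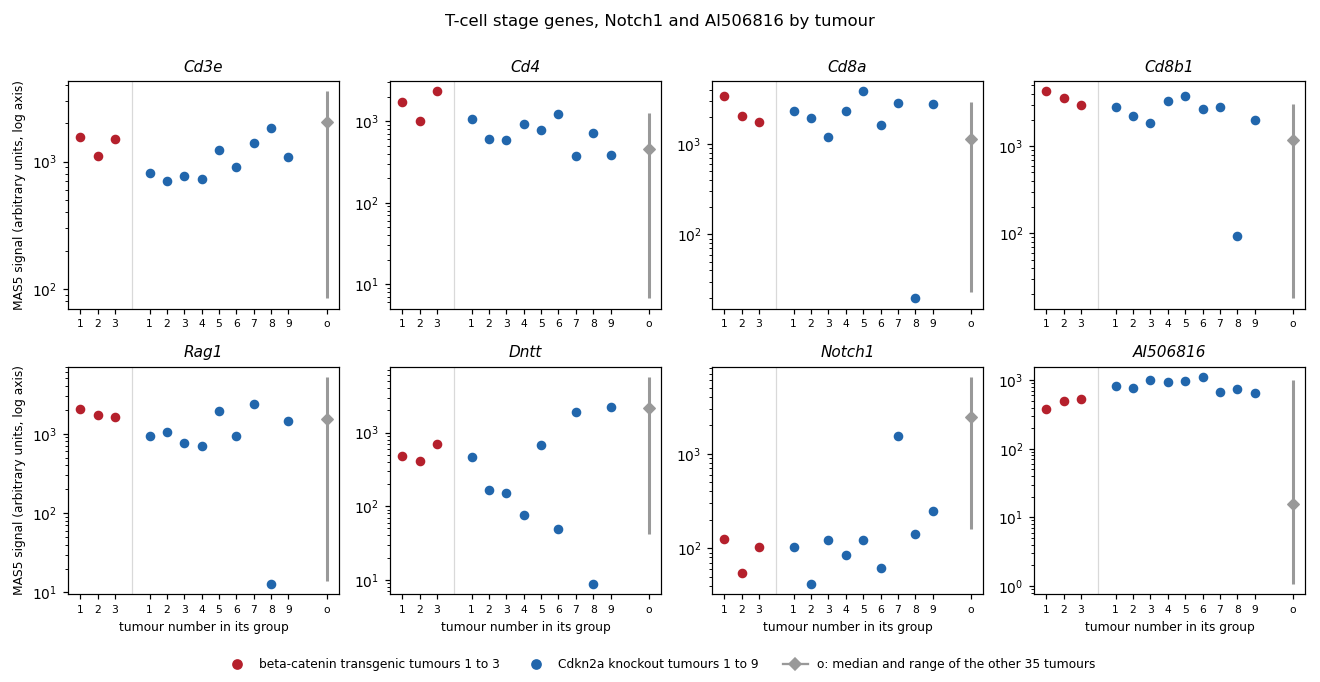
MAS5 signal (arbitrary units, log axis) of 8 genes in each beta-catenin transgenic tumour (red), each Cdkn2a knockout tumour (blue) and, as median and range, in the other 35 tumours (grey). Cdkn2a knockout tumour 8 drops out for *Cd8a* (19.6), *Cd8b1* (93), *Rag1* (12.8) and *Dntt* (8.79), Cdkn2a knockout tumour 7 stands up for *Notch1* (1537), and *AI506816* is high in both groups.

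Each array reads a whole tumour, so that in every difference below more cells of a type and more RNA per cell cannot be told apart. A gene was called at a Benjamini-Hochberg adjusted p under 0.05 in limma's test, run on log2(signal + 15.9) over 7268 genes. Differences are beta-catenin transgenic minus Cdkn2a knockout on that scale, given ± SE. Where the dimmer group reads near or under 15.9, the size of a difference depends on this added constant. In total 466 genes were called (6.41% of those tested), 251 higher (3.45%) and 215 lower (2.96%) in beta-catenin tumours, 135 and 64 of them by at least 2-fold. The median difference of all tested genes was 0.01. With no test, the beta-catenin tumours lay wholly above the Cdkn2a knockout tumours in 4.17% of tested genes and wholly below them in 3.59%. Quantile normalization called 7.24% of genes, 3.32% higher and 3.92% lower. Without Cdkn2a knockout tumours 7 and 8, 871 of 7102 genes were called (12.3%), 457 higher (6.43%) and 414 lower (5.83%), and 450 of the 466 were among them. Tumour 8 alone moved this count: 933 genes were called without it and 360 without tumour 7. Leaving out beta-catenin tumour 1, 2 or 3 left 146, 290 and 133 calls.

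Several Wnt and beta-catenin target genes had high signals in all 3 beta-catenin tumours and also in some Cdkn2a knockout tumours, and 1 passed the test. Of 17 tested targets on a list of 46, *Notum* alone rose (5.88%, against 3.45% of all genes higher), 0 fell, and the median difference was 0.41. *Notum*, a secreted enzyme that inactivates Wnt ligands, read 89.1, 415 and 468 in beta-catenin tumours, against 17.5 to 114 (median 44.3) in Cdkn2a knockout tumours. Beta-catenin tumour 1 lay inside the range of the Cdkn2a knockout tumours and the other two lay far above it. *Notum* was higher by 2.14 ± 0.48 (adjusted p = 0.0208, and 2.10 without Cdkn2a knockout tumours 7 and 8), a call lost without beta-catenin tumour 2 or 3.

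*Axin2*, the scaffold of the destruction complex and a widely used readout of the pathway, read 1105, 911 and 1134 in beta-catenin tumours, and from 92.8 to 1055 (median 298) in Cdkn2a knockout tumours. The upper Cdkn2a knockout values came from tumours 6 (1055) and 4 (736), and the lower from tumours 7 (185), 8 (141) and 9 (92.8). Its difference of 1.64 ± 0.58 was not called (adjusted p = 0.105), nor was it without tumours 7 and 8 (1.37, adjusted p = 0.128). The median of the other 35 tumours was 169 and their highest value 620, so all 3 beta-catenin tumours and Cdkn2a knockout tumours 4 and 6 exceeded every one of them. The RefSeq promoter window of *Axin2* (GRCm38.p6, plus strand, chr11:108920099-108920398) is shown because it is the best known target. It held no copy of CTTTGA or its reverse complement TCAAAG, a core of the TCF and LEF motif that 16% of 32851 promoter windows of the same length hold on either strand.
Axin2: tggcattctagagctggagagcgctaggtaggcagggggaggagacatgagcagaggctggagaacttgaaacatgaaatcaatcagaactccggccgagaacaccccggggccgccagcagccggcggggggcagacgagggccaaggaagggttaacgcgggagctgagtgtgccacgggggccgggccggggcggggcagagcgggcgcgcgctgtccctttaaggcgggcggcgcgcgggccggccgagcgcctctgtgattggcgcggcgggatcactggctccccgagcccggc

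*Apcdd1*, an inhibitor at the Wnt receptor, read 1298, 1227 and 2812 in beta-catenin tumours. In Cdkn2a knockout tumours it ran from 28.2 to 1104 (median 245), with 1104, 1015 and 773 in tumours 6, 4 and 2 and under 50 in tumours 5, 7, 8 and 9. The groups did not overlap, yet the spread among Cdkn2a knockout tumours left the difference of 3.03 ± 1.08 short of the threshold (adjusted p = 0.11). *Nkd1*, which binds Dishevelled and dampens the signal, read 235, 473 and 627 in beta-catenin tumours against 15.5 to 423 (median 121) in Cdkn2a knockout tumours, with tumours 6, 4 and 2 again the highest of the Cdkn2a knockout group (423, 318 and 311). *Sp5*, a zinc finger factor induced by Wnt, read 430, 293 and 176 in beta-catenin tumours. Among Cdkn2a knockout tumours it read 371, 192 and 145 in tumours 2, 6 and 4 and at most 19.1 in the rest. *Tnfrsf19*, a receptor of the tumour necrosis factor family, read 257, 1014 and 296 in beta-catenin tumours, and 1.46 to 272 (median 87.5) in Cdkn2a knockout tumours. For 6 of the 7 genes described here (*Wif1* below included, *Axin2* the exception) tumours 2, 4 and 6 were the highest 3 of the 9 Cdkn2a knockout tumours. The targets *Lef1*, *Cd44* and *Ccnd1* did not follow this order. *Lef1* read 212, 306 and 177 in Cdkn2a knockout tumours 2, 4 and 6, and was highest in tumours 9 (468) and 7 (452). *Cd44* was highest in Cdkn2a knockout tumours 1 (1227) and 5 (906), and *Ccnd1* in tumours 7 (212) and 3 (191). *Nkd1* (1.97 ± 0.81), *Sp5* (2.61 ± 0.93) and *Tnfrsf19* (2.65 ± 0.84) were not called (adjusted p = 0.165, 0.111 and 0.0775). With the spread estimated from all 47 arrays instead, 4 of the 17 targets were higher (*Notum*, *Sp5*, *Tnfrsf19* and *Apcdd1*, the last at adjusted p = 0.0305) and *Axin2* was not (adjusted p = 0.0627). *Sp5* was also called without Cdkn2a knockout tumour 2 (2.98, adjusted p = 0.0434). Without Cdkn2a knockout tumours 7 and 8, 1 target fell, the connexin gene *Gja1* (−0.75, adjusted p = 0.0404, against −0.70 ± 0.23 and adjusted p = 0.0801 over all 12 arrays).

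Counted tumour by tumour, 7, 6 and 7 of the 17 targets exceeded the highest of the other 35 tumours in beta-catenin tumours 1, 2 and 3. In Cdkn2a knockout tumours 1 to 9 the same count was 1, 3, 1, 5, 1, 6, 2, 0 and 0. Cdkn2a knockout tumour 6 thus equalled beta-catenin tumour 2, tumour 4 came next, and tumours 8 and 9 had no such gene. Counted above the median of the other 35 tumours instead, the groups did not separate. That count was 10, 10 and 11 in beta-catenin tumours 1, 2 and 3. It was 11, 10, 12, 11, 7, 11, 8, 6 and 6 in Cdkn2a knockout tumours 1 to 9. The filter asks for 3 arrays, so the beta-catenin arrays alone can admit a target, and both counts are a description. Other listed targets did not separate the groups. *Lef1*, a nuclear partner of beta-catenin and its target, read 374, 399 and 792 in beta-catenin tumours, 177 to 468 (median 287) in Cdkn2a knockout tumours and had a median of 846 in the other 35 (0.73 ± 0.28, adjusted p = 0.136). *Cd44*, an adhesion receptor, was 0.57 ± 0.50 and *Ccnd1*, a D cyclin, 0.14 ± 0.28, neither called. *Myc* read 1866, 1703 and 1220 in beta-catenin tumours, against 1546 to 3116 (median 2256) in Cdkn2a knockout tumours, a difference of −0.50 ± 0.21 (adjusted p = 0.175). The other 35 tumours had a median of 897, so *Myc* was above it in all 12. *Tcf7* was not analysed here.

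**Figure D2:**
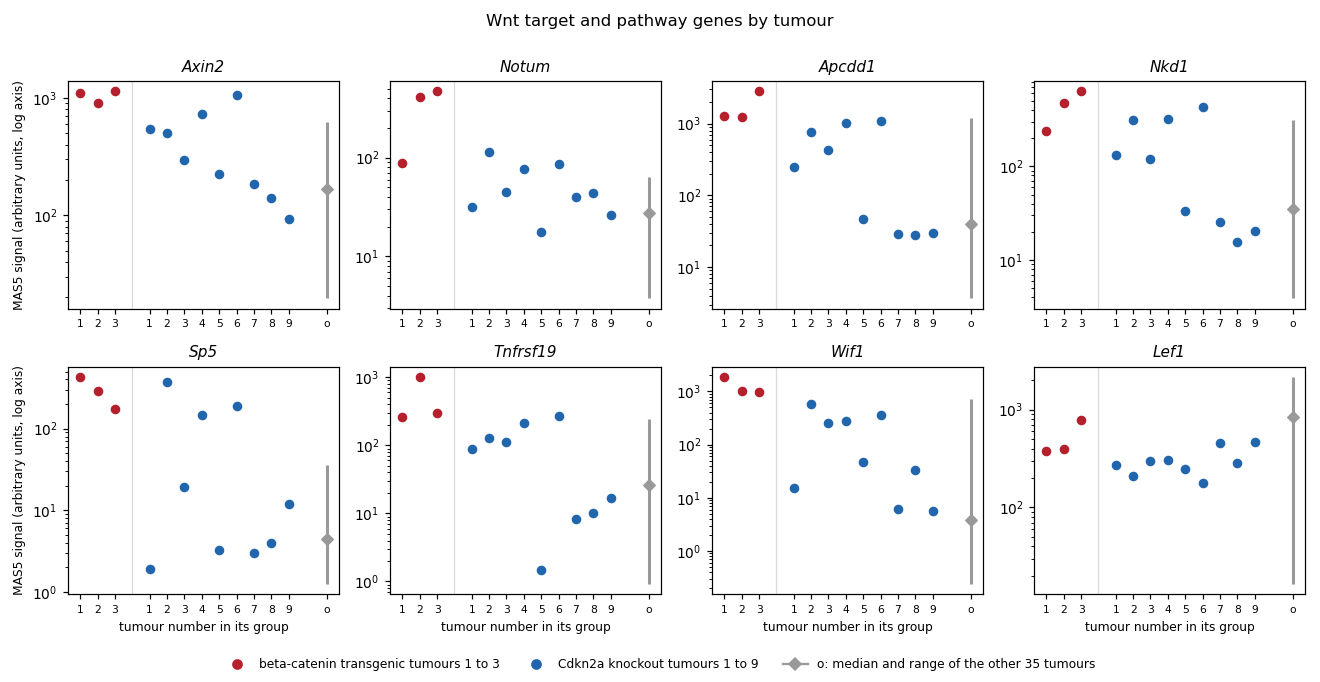
MAS5 signal (arbitrary units, log axis) of 8 genes of the Wnt pathway in each beta-catenin transgenic tumour (red), each Cdkn2a knockout tumour (blue) and, as median and range, in the other 35 tumours (grey). Cdkn2a knockout tumours 2, 4 and 6 lie near the beta-catenin tumours for *Apcdd1*, *Nkd1* and *Sp5*, while tumours 7, 8 and 9 lie near the grey medians of these genes. *Lef1* does not follow this order, with tumours 2 and 6 the lowest of the Cdkn2a knockout tumours (212 and 177).

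Among Wnt ligands, receptors and secreted inhibitors 9 of 46 listed genes passed the filter, and *Wif1* alone was called (11.1%, against 3.45% of all genes higher). *Wif1*, which binds and blocks Wnt ligands outside the cell, read 1866, 998 and 954 in beta-catenin tumours. In Cdkn2a knockout tumours it ran from 5.7 to 585 (median 47.1), highest in tumours 2 (585), 6 (352) and 4 (277), and the other 35 tumours had a median of 3.81. It rose by 3.65 ± 0.99 (adjusted p = 0.0451, and 3.20, adjusted p = 0.0487, without tumours 7 and 8), a call lost in 8 of 12 fits with 1 tumour left out (each beta-catenin tumour and Cdkn2a knockout tumours 1, 3, 5, 7 and 9). The ligand gene *Wnt6* read 87.9, 277 and 236 in beta-catenin tumours, against 217 in Cdkn2a knockout tumour 2 and 49.1 to 77.7 in the other 8. It was not called (1.19 ± 0.38, adjusted p = 0.0748) but was without that tumour (1.37, adjusted p = 0.0141). *Wnt7b* (0.53 ± 0.19) and the co-receptor *Lrp6* (0.42 ± 0.17) did not pass either.

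In the destruction complex and among nuclear partners, 36 of 47 listed genes were tested, 2 rose (5.56%, against 3.45% of all genes) and 1 fell (2.78%, against 2.96%), with a median of 0.14. These shares are near those of all genes and are no result about the list. *Nlk*, a kinase that phosphorylates TCF and LEF factors, read 944, 1189 and 697 in beta-catenin tumours, against 400 to 576 (median 446) in Cdkn2a knockout tumours. The groups did not overlap, and *Nlk* rose by 0.96 ± 0.17 (adjusted p = 0.00716), with every tumour left out in turn. *Btrc*, the subunit that recognises marked beta-catenin, read 98, 109 and 123 in beta-catenin tumours against 38.4 to 62.8 in Cdkn2a knockout tumours (0.83 ± 0.17, adjusted p = 0.0158), but its other probe set gave −0.13, and the call was lost without any 1 of the beta-catenin tumours. Every Cdkn2a knockout tumour read *Btrc* below the lowest array median of the 12 (67.8), so only the beta-catenin arrays carried it past the filter. *Cul1*, the scaffold of the same ligase, fell by 0.44 (± 0.12, adjusted p = 0.0401), a call lost in 9 of 12 fits with 1 tumour left out (all but those without Cdkn2a knockout tumours 2, 7 and 8). The core of the complex was not called: *Apc* was −0.09 ± 0.12, *Gsk3a* 0.41 ± 0.18 and *Gsk3b* −0.22 ± 0.14. The corepressors *Tle3* (0.78 ± 0.30) and *Tle5* (0.64 ± 0.25) were not called, nor was *Cby1* (−0.82 ± 0.26), which keeps beta-catenin from TCF. *Ctnnbip1*, which does the same, read 191, 193 and 194 in beta-catenin tumours and 61.3 to 187 in Cdkn2a knockout tumours without overlap, and was not called either (0.57 ± 0.22, adjusted p = 0.137). Without tumours 7 and 8 *Tle5*, *Gsk3a* and *Cby1* were called as well, with 4 higher and 2 lower of 36. In that fit 6.43% of all genes were higher and 5.83% lower. The count of rises was 1 without any 1 of the beta-catenin tumours. Of 6 tested adherens junction partners of beta-catenin 0 were called in either direction.

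The largest rises joined genes of unlike function. *Tnni1*, the troponin I of slow muscle, read 2195, 1766 and 563 in beta-catenin tumours, against 4.73 to 59.4 (median 14.7) in Cdkn2a knockout tumours and a median of 7.6 in the other 35. Its difference of 5.11 ± 0.45 was the largest of the 7268 tested genes with the constant of 15.9 (adjusted p = 3.5e-05). The order depends on that constant, and with 1 in its place *Ms4a4b* (7.12) and *Slc38a4* (6.31) exceeded *Tnni1* (5.96). *Lad1*, which encodes ladinin, an anchoring filament protein, read 1613, 906 and 1749 in beta-catenin tumours, against 19.5 to 123 (median 33.7) in Cdkn2a knockout tumours (4.67 ± 0.36, adjusted p = 1.39e-05). Both groups stood clear of each other for both genes, and neither call was lost with any tumour left out. Every Cdkn2a knockout tumour read *Tnni1* below the lowest array median of the 12 (67.8), so only the beta-catenin arrays carried it past the filter. The same holds for *Gdpd3*, *Ms4a4b*, *Slc38a4*, *Ccl22* and *Prf1* below, as for *Btrc* above.

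*Tnni1* and *Lad1* are immediate neighbours on mouse chromosome 1 in the RefSeq gene table of GRCm38.p6. On the *Tnni1* side *Phlda3* (0.46 ± 0.21) and *Csrp1* (0.25 ± 0.22) were tested and not called, and on the *Lad1* side *Tnnt2* and *Pkp1* were below the filter (signals up to 14.9 in beta-catenin tumours and up to 68 in Cdkn2a knockout tumours). Their promoter windows are shown because the pair moved together. That of the upstream of 2 annotated *Tnni1* starts (plus strand, chr1:135799171-135799470) holds 1 match to TCAAAG, in capitals, and that of *Lad1* (plus strand, chr1:135818348-135818647) holds 0. A match is no evidence of binding, and 16% of all windows have one.
Tnni1: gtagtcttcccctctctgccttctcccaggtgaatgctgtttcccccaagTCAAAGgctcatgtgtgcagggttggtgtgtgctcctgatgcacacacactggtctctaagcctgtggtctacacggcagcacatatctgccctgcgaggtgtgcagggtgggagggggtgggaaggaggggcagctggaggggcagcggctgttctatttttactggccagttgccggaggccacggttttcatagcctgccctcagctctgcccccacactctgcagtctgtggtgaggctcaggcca
Lad1: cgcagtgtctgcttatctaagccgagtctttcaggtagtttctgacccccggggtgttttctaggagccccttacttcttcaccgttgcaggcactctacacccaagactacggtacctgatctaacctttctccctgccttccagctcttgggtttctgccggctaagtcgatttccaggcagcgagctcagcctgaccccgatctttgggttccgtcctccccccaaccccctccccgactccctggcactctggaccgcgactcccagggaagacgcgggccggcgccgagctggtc

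*Gdpd3*, a phosphodiesterase that acts on lysophospholipids, was the steadiest of the large rises, at 826, 964 and 1009 in beta-catenin tumours and 6.56 to 38.1 (median 16.6) in Cdkn2a knockout tumours (4.82 ± 0.29, adjusted p = 1.82e-06). High *Gdpd3* was not particular to the beta-catenin tumours, as the other 35 tumours had a median of 55.6 and reached 3554. *Cwh43*, linked to the lipid part of membrane anchors, read 1088, 724 and 371 in beta-catenin tumours against 2.89 to 82.1 in Cdkn2a knockout tumours (3.97 ± 0.47, adjusted p = 0.000415). *Grb10*, an adaptor that restrains insulin and IGF receptor signalling, read 2878, 1569 and 1058 in beta-catenin tumours, against 613 in Cdkn2a knockout tumour 2 and 65.8 to 169 in the other 8 (3.55 ± 0.50, adjusted p = 0.0015). The calls of these 3 genes held with any tumour left out.

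A pair of genes stood out in beta-catenin tumour 1. *Ms4a4b*, a membrane protein of mature T cells in the CD20 family, read 1809, 136 and 258 in beta-catenin tumours and at most 6.43 in Cdkn2a knockout tumours (4.54 ± 0.55, adjusted p = 0.000482), while its other probe set gave 0.57. *Slc38a4*, an amino acid transporter, read 1638, 127 and 279 in beta-catenin tumours, against 57 and 59.5 in Cdkn2a knockout tumours 4 and 6 and at most 3.85 in the rest (4.09 ± 0.70, adjusted p = 0.0061). Both stayed called without beta-catenin tumour 1.

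For others the groups overlapped. *Sim2*, a transcription factor of the bHLH-PAS family, read 647, 1373 and 412 in beta-catenin tumours, but 1682 in Cdkn2a knockout tumour 2 against at most 45.4 in the other 8. Its call (3.93 ± 1.06, adjusted p = 0.0451) was lost without tumours 7 and 8 (adjusted p = 0.0543) and in 10 of 12 fits with 1 tumour left out. It held without Cdkn2a knockout tumour 2 (4.57 ± 0.41, adjusted p = 7.67e-05) or 8. *Itgam*, the CD11b integrin chain of myeloid cells, followed the same tumours: 248, 1712 and 807 in beta-catenin tumours, 883 in Cdkn2a knockout tumour 2 and at most 69.5 in the other 8 (3.35 ± 0.83, adjusted p = 0.0324, lost without beta-catenin tumour 2 or 3 or Cdkn2a knockout tumour 1, 3 or 5). *Dsg2*, a desmosomal cadherin, read 2018, 752 and 209 in beta-catenin tumours, against 20.2 to 293 (median 40.8) in Cdkn2a knockout tumours, with the top value in tumour 8 (3.27 ± 0.66, adjusted p = 0.0134, lost without beta-catenin tumour 1). *H2-Eb1* and *Wif1* complete the 12.

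**Figure D3:**
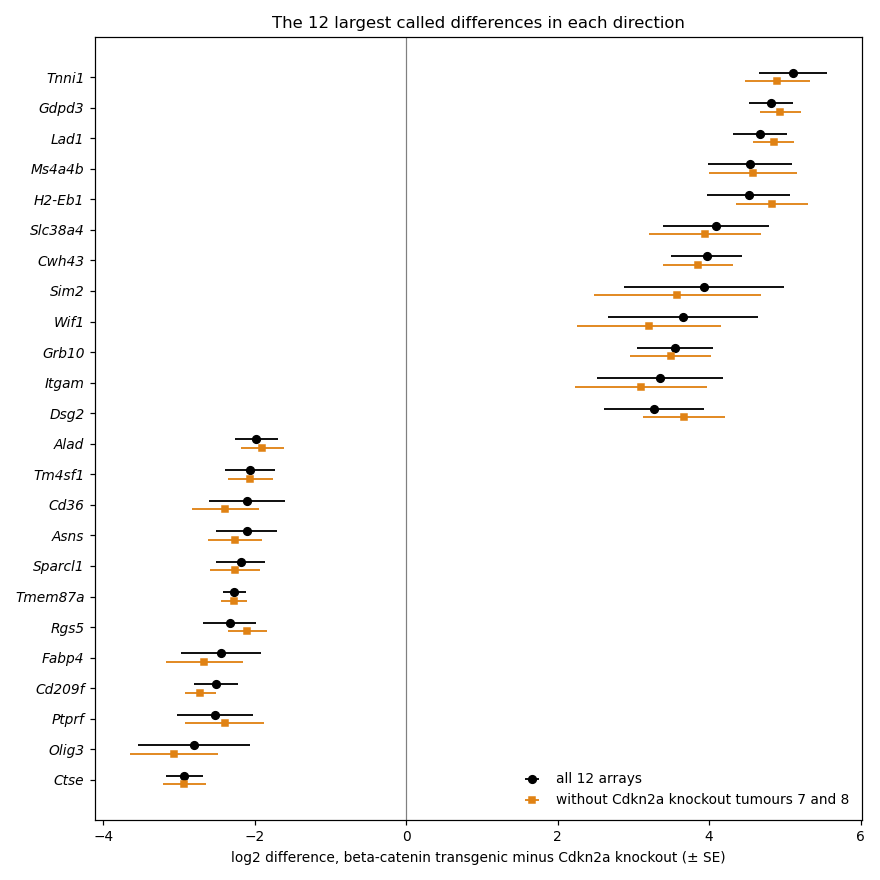
Log2 difference ± SE (beta-catenin transgenic minus Cdkn2a knockout) for the 12 largest called differences in each direction, over all 12 arrays (black) and without Cdkn2a knockout tumours 7 and 8 (orange). The rises run from *Tnni1* (5.11) to *Dsg2* (3.27) and the falls from *Ctse* (−2.93) to *Alad* (−1.98), and no value changes sign without the pair.

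The largest falls were smaller than the largest rises. *Ctse*, the aspartic protease cathepsin E, read 1187, 370 and 995 in beta-catenin tumours, against 5060 to 7324 (median 5873) in Cdkn2a knockout tumours (−2.93 ± 0.25, adjusted p = 3.02e-05). The other 35 tumours ended at 4062, below every Cdkn2a knockout tumour, and their median of 1365 was nearer the beta-catenin tumours. *Tmem87a*, a Golgi membrane protein, was the tightest of the falls, at 91, 62.9 and 98.8 in beta-catenin tumours and 409 to 589 (median 434) in Cdkn2a knockout tumours (−2.27 ± 0.15, adjusted p = 4.08e-06). *Asns*, which makes asparagine, read 234, 179 and 98 in beta-catenin tumours against 323 to 1279 in Cdkn2a knockout tumours (−2.11 ± 0.40, adjusted p = 0.0106, lost without beta-catenin tumour 3). *Alad*, an enzyme of haem synthesis, read 184, 281 and 162 in beta-catenin tumours against 464 to 1230 in Cdkn2a knockout tumours (−1.98 ± 0.28, adjusted p = 0.00157).

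*Olig3*, a bHLH factor, read 12.9, 18.8 and 18.1 in beta-catenin tumours, and 77.2 to 784 in 8 Cdkn2a knockout tumours against 19.9 in tumour 8 (−2.80 ± 0.74, adjusted p = 0.0412, −3.07 and adjusted p = 0.0078 without tumours 7 and 8). That call was lost in 8 of 12 fits with 1 tumour left out, those without any 1 beta-catenin tumour and those without Cdkn2a knockout tumour 1, 4, 5, 6 or 7. *Ptprf*, a receptor tyrosine phosphatase, read 117, 2.47 and 69.2 in beta-catenin tumours against 182 to 595 in Cdkn2a knockout tumours (−2.53 ± 0.50). *Cd209f*, a C-type lectin gene, read 45.2, 37.7 and 28.4 in beta-catenin tumours against 141 to 434 in Cdkn2a knockout tumours (−2.51 ± 0.29). The remaining 5 are known from vessels, fat or stroma. *Fabp4* (−2.45 ± 0.53) and *Cd36* (−2.10 ± 0.50) handle fatty acids, *Rgs5* (−2.33 ± 0.35) marks pericytes, *Sparcl1* (−2.19 ± 0.32) is a matrix protein, and *Tm4sf1* (−2.07 ± 0.33) is a membrane protein of endothelium whose other probe set gave 0.12. Cdkn2a knockout tumours exceeded beta-catenin tumours without overlap in each of these 5. The beta-catenin tumours read at most 81.3 for *Rgs5*, and less for *Olig3*, *Cd209f*, *Sparcl1*, *Cd36* and *Tm4sf1*. Those values are below their lowest array median (84.1), so only Cdkn2a knockout arrays carried these genes past the filter. The *Fabp4* call was lost without beta-catenin tumour 1 or 2, and that of *Cd36* without any of the 3.

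Several genes of mature T cells were higher in beta-catenin tumours. Of 20 tested genes of mature single positive thymocytes 5 rose (25%, against 3.45% of all genes) and 0 fell. The median was 0.44, with 12 differences positive and 8 negative. The filter asks for 3 arrays, so that the 3 beta-catenin arrays alone can admit a gene that is high in them, and such a share is a description. With a filter of 6 arrays 2 of 15 rose. The summed signal of the 24 genes on the array overlapped, at 10103 to 23629 in beta-catenin tumours and 10116 to 24240 in Cdkn2a knockout tumours. *Il4ra*, the interleukin 4 receptor chain, read 820, 284 and 419 in beta-catenin tumours against 58.9 to 222 in Cdkn2a knockout tumours (1.84 ± 0.36, adjusted p = 0.0125). *Runx3*, which directs the CD8 lineage, read 131, 118 and 261 in beta-catenin tumours against 23.7 to 76.1 in Cdkn2a knockout tumours (1.32 ± 0.29, adjusted p = 0.0196). *Cxcr4*, a chemokine receptor, read 3454, 3205 and 3007 in beta-catenin tumours against 1157 to 2486 in Cdkn2a knockout tumours (0.85 ± 0.20, adjusted p = 0.0282). *Ms4a4b* and *Gimap4*, a GTPase of lymphocytes named here after its values were seen (2.93 ± 0.81, adjusted p = 0.0489), were the others. The *Il4ra* and *Runx3* calls were lost without beta-catenin tumour 1 or 3, that of *Cxcr4* without any 1 beta-catenin tumour and that of *Gimap4* in 10 of 12 fits with 1 tumour left out. Without tumours 7 and 8, 8 of 19 were higher, against 6.43% of all genes. The count was 8 without Cdkn2a knockout tumour 8, 3 without beta-catenin tumour 2, and 1 without beta-catenin tumour 1 or 3.

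Of 25 tested genes of the T cell receptor and its signalling 2 rose (8%, against 3.45% of all genes) and 1 fell (4%, against 2.96%). *Lcp2*, the SLP-76 adaptor, read 1721, 1230 and 1641 in beta-catenin tumours against 463 to 1033 in Cdkn2a knockout tumours (1.06 ± 0.23, adjusted p = 0.0176), *Thy1*, a surface glycoprotein, was 0.70 ± 0.19 and *Sh2d1a*, the SAP adaptor, −0.98 ± 0.27. The *Thy1* and *Sh2d1a* calls were lost in 10 and 8 of 12 fits with 1 tumour left out. The count of rises was 0 without beta-catenin tumour 1 or 3, 4 without Cdkn2a knockout tumour 8, 2 without Cdkn2a knockout tumour 9 and 1 without any other tumour. It was 7 of 25 without tumours 7 and 8, against 6.43% of all genes higher. Of 21 double positive genes 0 were called: *Cd4* read 1712, 1014 and 2319 in beta-catenin tumours against 376 to 1218 in Cdkn2a knockout tumours (1.19 ± 0.35, adjusted p = 0.0577) and *Rag1* 2046, 1740 and 1632 in beta-catenin tumours against 12.8 to 2402 in Cdkn2a knockout tumours (1.22 ± 0.97). *Rag2*, the other recombinase gene, went the other way. It read 30.8, 5.34 and 41.3 in beta-catenin tumours against 3.33 to 156 in Cdkn2a knockout tumours (−1.07 ± 0.61, adjusted p = 0.314). Without tumours 7 and 8 *Rag2* was called lower (−1.53, adjusted p = 0.0276). Lists of early progenitors, double negative cells, Notch targets and E proteins had 0 called genes over all 12 arrays. Without tumours 7 and 8 there were 2 rises and 3 falls among 21 double positive genes and 2 rises and 1 fall among 16 double negative genes. There were also 2 rises among 18 Notch genes, 1 rise among 13 E protein genes and 0 calls among 7 early progenitor genes. In that fit 6.43% of all genes were higher and 5.83% lower. Of 46 known targets of retroviral insertion 3 rose (6.52%, against 3.45% of all genes) and 0 fell: *Runx3*, *Slamf6*, a surface receptor (1.44 ± 0.35, lost in 4 of 12 fits with 1 tumour left out), and *Socs1*, which dampens cytokine signalling (1.18 ± 0.30, lost in 7). *Socs1* is also 1 of 2 rises among 26 cytokine receptor and feedback genes (7.69%), with *Il4ra*. The count of retroviral targets was 0 without beta-catenin tumour 1 or 3, 1 without beta-catenin tumour 2 or Cdkn2a knockout tumour 3, and 6 without Cdkn2a knockout tumour 8. It was 8 of 44 without tumours 7 and 8, against 6.43% of all genes higher.

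Part of the DNA replication genes were lower in beta-catenin tumours. Of 43 tested, 8 fell (18.6%, against 2.96% of all genes) and 0 rose, the median was −0.40 (0.01 over all tested genes), and 41 of the 43 differences were negative. *Cdt1*, which licenses origins, read 1307, 1160 and 932 in beta-catenin tumours, against 1645 to 2160 (median 1946) in Cdkn2a knockout tumours (−0.73 ± 0.12, adjusted p = 0.00581). *Tk1*, the thymidine kinase, read 235, 317 and 297 in beta-catenin tumours against 412 to 587 in Cdkn2a knockout tumours (median 522; −0.82 ± 0.14, adjusted p = 0.00581). Both groups were clear of each other for these genes, and both calls held with any tumour left out. *Orc1*, an origin recognition subunit (−0.79 ± 0.17), and *Pold2*, a polymerase subunit (−0.67 ± 0.14), also fell. Without tumours 7 and 8, 21 of the 43 were lower and 0 higher, against 5.83% of all genes lower. Tumour 8 made that change, with 22 lower when it alone was left out, and 5, 2 and 2 were lower without beta-catenin tumours 2, 1 and 3. With the replicate block or the spread of all 47 arrays 1 was lower. The summed signal of the list was 40514, 41600 and 33223 in beta-catenin tumours, and 31015 in Cdkn2a knockout tumour 8 against 44557 to 51558 in the other 8.

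Spindle checkpoint genes had 0 of 47 called over all 12 arrays (median −0.26). Without tumours 7 and 8, 6 of the 47 were lower, against 5.83% of all genes. Of 43 oxidative phosphorylation genes 5 fell (11.6%, against 2.96% of all genes), 0 rose and the median was −0.25, with *Ndufs7* (−0.50 ± 0.11), *Ndufa8* (−0.56 ± 0.13), *Uqcrc1* (−0.43 ± 0.10) and *Uqcrq* (−0.51 ± 0.12), subunits of respiratory complexes I and III, among them. The 3 other *Uqcrq* probe sets gave −0.04 to 0.57, 2 of them with the opposite sign. That count was 0 without beta-catenin tumour 1 or 3, 3 without Cdkn2a knockout tumour 3, 4 or 5, 9 without tumour 6 and 10 without tumour 8. MYC targets had 1 rise (*Riox2*, a nucleolar oxygenase, 1.00 ± 0.17) and 1 fall (*Shmt2*, a mitochondrial enzyme of one-carbon metabolism, −0.65 ± 0.17, lost in 10 of 12 fits with 1 tumour left out) in 34, with 29 differences negative. These are 2.94% each way, near the shares of all genes (3.45% higher and 2.96% lower), and no result about the list. In the DNA damage list *Xrcc5*, the Ku80 end-binding protein, was higher (1.18 ± 0.27), and the kinases *Atr* (−0.60 ± 0.14) and *Atm* (−0.58 ± 0.16) were lower, of 34 genes. These are 2.94% higher and 5.88% lower, against 3.45% and 2.96% of all genes, and no result about the list. The list had 0 calls without any 1 beta-catenin tumour, 5 falls without Cdkn2a knockout tumour 8 and 1 without tumour 1, 2, 3, 4, 5, 7 or 9, and the *Atm* call was lost in 10 of 12 fits. *Apaf1*, the core of the apoptosome, rose (0.72 ± 0.13, adjusted p = 0.00904) and was the only call among 24 p53 targets (4.17%) and 22 BCL2 family and caspase genes (4.55%). Both shares are near the 3.45% of all genes higher and are no result about these lists. *Pdk1*, a kinase that restrains pyruvate oxidation, was the only call among 18 glycolysis genes (5.56%, against 3.45% of all genes higher), again no result about the list. *Pdk1* rose by 1.30 ± 0.33, a call lost in 6 of 12 fits with 1 tumour left out (without any 1 beta-catenin tumour or Cdkn2a knockout tumour 4, 5 or 7). Ribosomal proteins (33 tested), interferon response (24), immediate early genes (16), MYC family members (9) and the RB pathway with D cyclins (22) had 0 calls over all 12 arrays. Without tumours 7 and 8, 5 of 24 interferon genes, 3 of 16 immediate early genes and 1 of 21 genes of the RB pathway were higher. Of all genes 6.43% were higher in that fit.

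**Figure D4:**
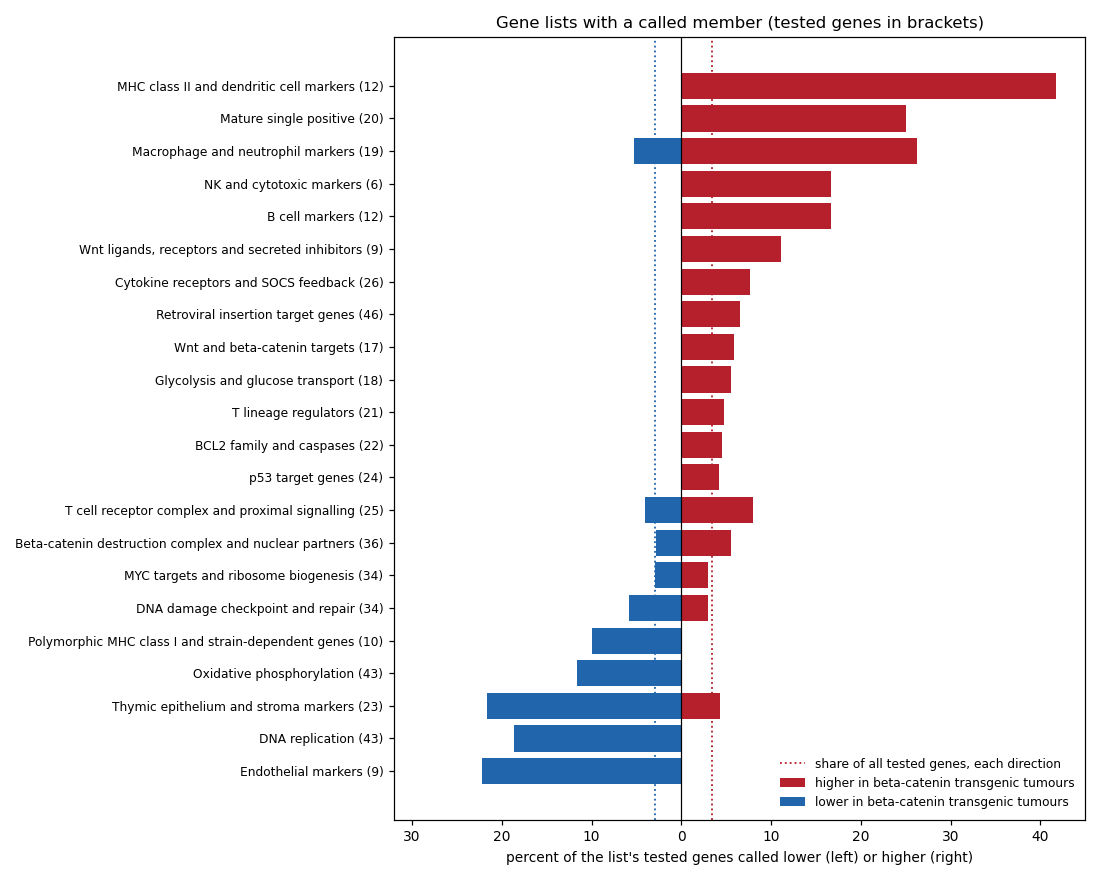
Percent of each list's tested genes called higher (red, right) or lower (blue, left) in beta-catenin transgenic against Cdkn2a knockout tumours, for lists with a called member. Dotted lines mark the shares of all tested genes (3.45% higher, 2.96% lower). On the right, class II and dendritic cell markers reach 41.7%, macrophage and neutrophil markers 26.3% and mature single positive genes 25%, and on the left endothelial markers reach 22.2%, stroma markers 21.7% and DNA replication 18.6%.

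Several markers of other cells differed between the groups. Of 12 tested class II and dendritic cell markers 5 rose (41.7%, against 3.45% of all genes) and 0 fell, and all 12 differences were positive (median 1.44). *Ccl22*, a chemokine of dendritic cells, read 357, 211 and 385 in beta-catenin tumours, against 4.66 to 31.9 (median 20.2) in Cdkn2a knockout tumours (3.25 ± 0.27, adjusted p = 2.7e-05). *H2-Eb1*, a class II chain, read 2331, 725 and 4016 in beta-catenin tumours against 22.4 to 220 in Cdkn2a knockout tumours (median 77.8; 4.52 ± 0.55, adjusted p = 0.000471), and the other 35 tumours had a median of 383. Both genes separated the groups and stayed called with any tumour left out. *H2-Aa* (2.37 ± 0.60), *Cd83* (1.40 ± 0.30) and *Itgax* (1.93 ± 0.50, named after its values were seen) were the other rises. The *H2-Aa* call was lost in 7 of 12 fits with 1 tumour left out and that of *Itgax* in 9 of 11. With the filter of 6 arrays 3 of 9 rose. The filter of 3 arrays lets the beta-catenin arrays alone admit a marker, so the share and the positive signs are a description. Class II genes are among those that vary between mouse strains, and the strains are not labelled. The summed signal of the 19 genes on the array was 13832, 5115 and 21633 in beta-catenin tumours, and 1535 to 8492 (median 3153) in Cdkn2a knockout tumours, highest in tumours 8 and 7. The count was 8 without Cdkn2a knockout tumour 8, 3 without Cdkn2a knockout tumour 1, 2, 3, 4 or 5, 2 without beta-catenin tumour 1 or 3, and 7 without beta-catenin tumour 2.

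B cell markers lay higher in beta-catenin tumours by their sum, at 11551, 11901 and 10877, against 664 to 7810 (median 2455) in Cdkn2a knockout tumours. All 12 tested differences were positive (median 1.88), but 2 were called (16.7%, against 3.45% of all genes higher). They were *Igha*, an antibody constant region (584, 267 and 1344 in beta-catenin tumours against 9.51 to 339 in Cdkn2a knockout tumours, 2.85 ± 0.66), and *Fcer2a*, the low-affinity IgE receptor (1.94 ± 0.48, lost in 6 of 11 fits with 1 tumour left out). With the filter of 6 arrays 1 of 5 rose, and with the replicate block 5 of 12. Here too the beta-catenin arrays alone can admit a marker under the filter of 3 arrays, so the positive signs are a description. Cdkn2a knockout tumours 7 and 8 had the highest sums of their group, and without them 7 of 8 tested markers were higher, against 6.43% of all genes. Tumour 8 alone moved the count to 6, Cdkn2a knockout tumours 1, 3, 4 and 5 and beta-catenin tumour 3 to 1, beta-catenin tumour 1 to 0 and Cdkn2a knockout tumour 2 to 3. Of 6 tested NK and cytotoxic genes *Prf1*, perforin, rose (16.7%): 91, 167 and 232 in beta-catenin tumours against 36.5 to 58.7 in Cdkn2a knockout tumours (1.5 ± 0.23, adjusted p = 0.0031), with 0.16 from its other probe set. With the filter of 6 arrays 1 of these genes was tested and 0 were called. The sum of 18 such genes was 1571, 2182 and 1685 in beta-catenin tumours and 334 to 5654 in Cdkn2a knockout tumours, at least 4447 in tumours 3, 7, 8 and 9. The part of admixed cells in these and the T-cell differences was not tested.

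Of 19 tested macrophage and neutrophil markers 5 rose (26.3%, against 3.45% of all genes) and 1 fell (5.26%, against 2.96%). The rises are genes known from granulocytes, though *Itgam* did not follow the others. With the filter of 6 arrays 1 of 14 rose and 1 fell, and with the replicate block 0 rose and 1 fell. *S100a8* read 174, 1275 and 540 in beta-catenin tumours against 18.3 to 254 in Cdkn2a knockout tumours (2.94 ± 0.62), and *S100a9*, its calprotectin partner, 93.9, 825 and 268 in beta-catenin tumours against 3.44 to 90.3 in Cdkn2a knockout tumours (2.84 ± 0.57, adjusted p = 0.0136). *Ngp*, a neutrophil granule protein (1.70 ± 0.36), *Mmp9*, a gelatinase (1.61 ± 0.31), and *Itgam* were the rest. Cdkn2a knockout tumour 2 read 883 for *Itgam* but 20.9 for *S100a8*, 13.4 for *S100a9* and 62 for *Ngp*. The highest values among the other 35 tumours were 103 for *Itgam* and 11701 for *S100a8*. Values were highest in beta-catenin tumour 2 for all but *Mmp9*, and the count was 1 without beta-catenin tumour 2 or 3. The macrophage genes *Csf1r* (538, 536 and 1629 in beta-catenin tumours against 508 to 1082 in Cdkn2a knockout tumours) and *C1qa* (596, 372 and 1545 in beta-catenin tumours against 607 to 1302 in Cdkn2a knockout tumours) were not called, and *Mrc1*, the mannose receptor, fell (−1.77 ± 0.46, named after its values were seen, lost in 9 of 12 fits with 1 tumour left out). The sum of the 31 genes was 13869 to 23513 in beta-catenin tumours, and 10559 to 16689 in Cdkn2a knockout tumours.

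Some vessel and matrix genes were lower. Of 9 endothelial markers 2 fell (22.2%, against 2.96% of all genes) and 0 rose. They were *Plvap*, of the fenestral diaphragm (35.7, 13.9 and 46 in beta-catenin tumours against 71.5 to 201 in Cdkn2a knockout tumours, −1.38 ± 0.28), and *Esam*, an adhesion molecule (−0.71 ± 0.15). Every beta-catenin tumour read both genes below the lowest array median of its group (84.1), so only Cdkn2a knockout arrays carried them past the filter. The same holds for *Tagln* and *Lum* below, so the endothelial and stroma shares are a description. The defining endothelial genes *Kdr*, *Tek* and *Tie1* were below the filter, and the sum of 18 markers was 961 to 1088 in beta-catenin tumours and 1197 to 2127 in Cdkn2a knockout tumours, without overlap. Of 23 thymic epithelium and stroma markers 5 fell (21.7%, against 2.96% of all genes) and 1, *Thy1*, which T cells also carry, rose (4.35%, against 3.45%). *Tagln*, of smooth muscle, read 20.5, 5.25 and 9.71 in beta-catenin tumours against 43.7 to 140 in Cdkn2a knockout tumours (−1.83 ± 0.33, adjusted p = 0.0078, called with any tumour left out), and the basement membrane collagens *Col4a1* (−1.24 ± 0.27) and *Col4a2* (−1.05 ± 0.22) and the matrix protein *Lum* (−1.19 ± 0.28) also fell. *Sparc*, named after its values were seen, read 402, 43.7 and 323 in beta-catenin tumours against 272 to 1267 in Cdkn2a knockout tumours (−1.95 ± 0.54, adjusted p = 0.0487), a call lost in 11 of 12 fits with 1 tumour left out. The count of falls was 1 without beta-catenin tumour 2, 2 without tumour 1 and 3 of 18 with the filter of 6 arrays. The stroma sum overlapped, at 11752 to 18308 in beta-catenin tumours and 11312 to 17357 in Cdkn2a knockout tumours.

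**Figure D5:**
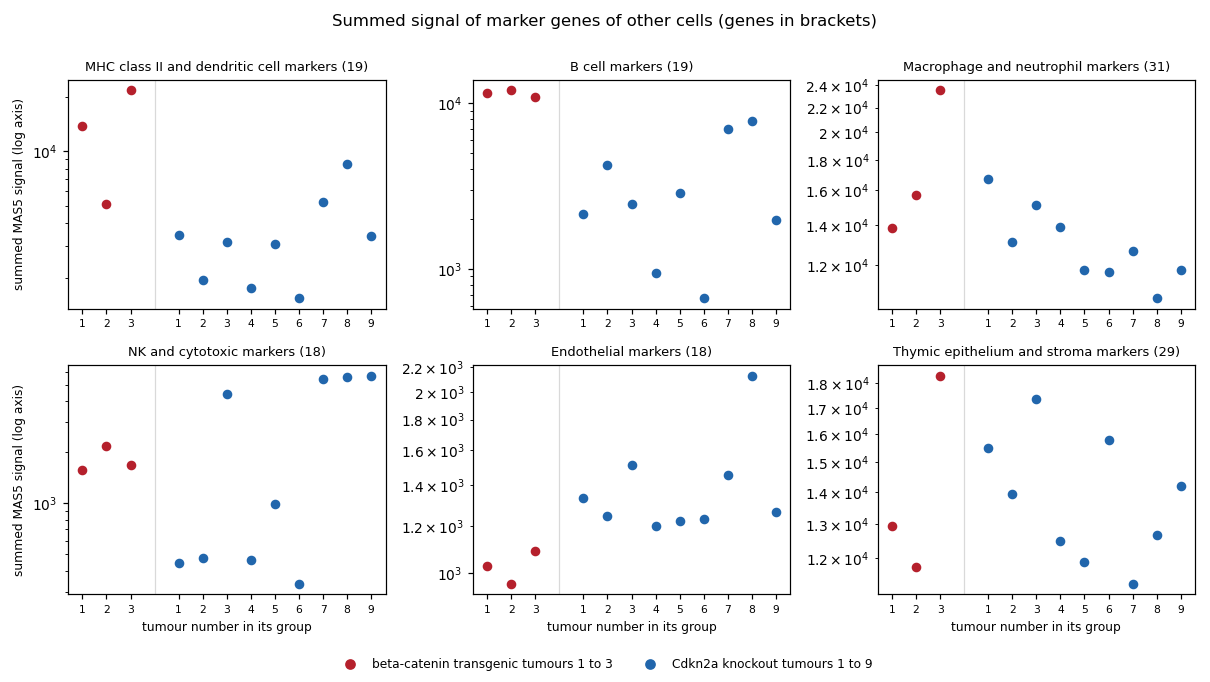
Summed MAS5 signal (log axis, each panel with its own range) of marker genes of other cells in each beta-catenin transgenic tumour (red) and each Cdkn2a knockout tumour (blue). The B cell sums of beta-catenin tumours (10877 to 11901) lie above all Cdkn2a knockout tumours, the endothelial sums (961 to 1088) below, and the stroma sums overlap.

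Set against the other 12 backgrounds, the beta-catenin tumours were more often the ones at an extreme. Among the 251 genes called higher, the mean signal of the beta-catenin tumours lay above all 12 background means for 151, and that of the Cdkn2a knockout tumours below all 12 for 32. Among the 215 called lower, the beta-catenin mean lay below all 12 for 92 and the Cdkn2a knockout mean above all 12 for 26. *Tnni1*, *Lad1*, *Ccl22* and *Nlk* are of the first kind and *Ctse*, *Olig3* and *Atr* of the last. The calls chose these genes, and the Cdkn2a knockout mean rests on 9 tumours against 3, so these shares are a description.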

How the data were processed

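Total RNA was extracted with Trizol and biotinylated cRNA was hybridised to Affymetrix arrays, per the labels' protocols. The deposited values are MAS5 signal intensities, per the submitters' processing notes, on a linear scale. Their means after trimming 2% at each end are 250.063 to 250.129 on all 47 arrays, so each array was scaled to a common level, which hides a change in total RNA. The depth of an array is not a count, so the number of arrays limits precision.

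Of 22690 probe sets, 64 controls were left out, and 20380 had 1 gene symbol, 691 several and 1555 none. A gene was read from its probe set of highest mean, and kept where its signal exceeded the array median in at least 3 of 12 arrays (7268 of 12393 genes). limma 3.58.1 in R 4.3.3 was run on log2(signal + 15.9), the constant being the 25th percentile, with a mean-variance trend, and p-values were adjusted by Benjamini-Hochberg across the 7268 genes. Array measures were compared with the exact permutation test of scipy 1.17.1. On simulated data with 200 changed genes among 7268, limma recovered 69.1% of those changed by 1 on the log2 scale and 94% of those changed by 2, and 5.34% of calls were false. The simulation drew independent normal noise for each gene and held no outlying tumour, so these rates need not hold for these arrays. Alternatives changed the constant, normalization, filter, probe set, spread, array weights, replicate block and tumours left out. Named genes were the titles' genes, *Axin2*, *Lef1* and *Myc*, the 12 largest called differences each way in genes brighter than the mean array median, up to 4 called genes a list of lowest p, and tested Wnt genes. Neighbours of *Tnni1* and markers given as not called or below the filter were chosen after their values were seen. The contrast, the members and the 37 gene lists were chosen with earlier results of these data known.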

Additional observations from a re-analysis of the deposited data

Results flagged for a closer look

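Among 104 sets of values examined in the 9 Cdkn2a knockout tumours, 18 (17.3%) had 1 tumour far from the rest, judged by its gap to the nearest tumour as a share of the whole range. Chance gives about 5%. The groups of 3 beta-catenin tumours were too small to examine.

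Cdkn2a knockout tumour 8 had the highest *Cd3d* (4172), *Cd3e* (1850) and *Cd3g* (2678) signals of its group, but was far below the others for the coreceptor, recombinase and lineage genes *Cd8b1* (share 0.8), *Cd8a* (0.753), *Rag1* (0.728) and *Bcl11b* (0.505), and for *Socs1* (0.544) and *Cby1* (0.496). It was far above them for the endothelial gene *Plvap* (0.514) and the B cell gene *Fcer2a* (0.501).

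Cdkn2a knockout tumour 2 was far above the others for *Sim2* (0.733), *Wnt6* (0.714), *Itgam* (0.71), *Grb10* (0.6), *Prf1* (0.533) and *Xrcc5* (0.503), all 6 of them genes with a higher mean in the beta-catenin tumours. Many of the genes examined were named because they were called in this contrast, so that shared direction is a description.

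Cdkn2a knockout tumour 7 was far above the others for *Notch1* (0.541), and tumour 3 far below them for *Btrc* (0.514). Cdkn2a knockout tumour 6 stood apart in the 3'/5' control ratios of *Actb* (0.792) and *Gapdh* (0.572).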

How the results depend on the processing

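The count of 466 called genes was 1299 with array weights, 871 without Cdkn2a knockout tumours 7 and 8, 292 with the spread of all 47 arrays and 232 with the replicate block, of which 143 were among the 466. It ran from 133 to 933 with 1 tumour left out. Quantile normalization called 526, with 45.8% higher against 53.9%, and moved the median of all genes to −0.03. Of 72 named called genes 0 reversed under any alternative that tested them, and 16 stayed called under every alternative that tested them. With the filter of 6 arrays only 53 of the 72 were tested, and a gene dropped by it counts as unchanged. The block lost 37 and the spread of all arrays 29. Reversals among uncalled genes were *Notch1* with the replicate block (0.09, against −0.60), *Bcl11b* without tumours 7 and 8 (−0.08, against 0.03) and, with 1 tumour left out, *Bcl11b* (−0.21 to 0.22) and *Ccnd1* (−0.05 to 0.49). The cause was not tested. The labels do not say that the replicate numbers pair the samples. Correlations of same-numbered deviations were −0.05, 0.337 and 0.134, and 2 of 3 were best with their own number. With only 3 such values they cannot decide whether samples are paired. Array median signal differed by 12.66 without tumours 7 and 8 and 6.93 to 12.53 with 1 tumour left out, that in the *Gapdh* ratio −0.09 to −0.05 and that in the *Actb* ratio −0.03 to −0.01. With 3 beta-catenin tumours, small differences and dim genes are the least certain.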
